A study of Mus musculus with 12 samples.

Results

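The forkhead transcription factors described here are Foxp1, Foxp4, Foxo1, Foxo3, Foxo4, Foxk1, Foxk2, Foxj3 and Foxn3, 9 genes of mouse splenic B cells. Every probe set that the array annotation gives to 1 of them and to no other gene was taken, which made 35 of the 45101 probe sets on the array. The 12 one-colour Affymetrix arrays measured RNA from B220-positive B cells sorted from spleen by flow cytometry, B220 being a surface protein of most B cells. All mice were of mixed 129/Sv and C57BL/6 background and all carried at least 1 conditional (flox) Foxp1 allele. Control cells were Foxp1wt/flox and deleted cells Foxp1flox/del, where del is a deleted allele. Cells of both genotypes were incubated for 4 h without stimulus (unstimulated) or with what the labels call IgM, which made 4 groups of 3 arrays. Whether and in which cells the conditional allele was recombined, the age of the mice, and whether replicates came from separate animals are not given in the sources used here, so p-values measure the spread between these samples, which may be technical.

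Forkhead proteins bind DNA through a winged-helix domain and share a core recognition sequence. In lymphocytes FOXO1 and FOXO3 keep resting cells out of cycle and maintain homing and receptor genes. When the antigen receptor activates PI3K, the kinase AKT phosphorylates FOXO proteins and they leave the nucleus, a step that RNA levels do not measure. FOXP1 and FOXP4 are related factors that mostly repress, and FOXP1 is needed in early B cell development. FOXK1 and FOXK2 repress starvation and autophagy genes, FOXN3 is a repressor linked to cell cycle checkpoints, and the role of FOXJ3 in B cells is less well known.

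Of the 9 genes, 7 (all but Foxo4 and Foxk1) were matched to RefSeq promoter sequence (GRCm38.p6) in 9 windows, 3 of them for Foxp1. The windows shown are the 250 bases before a start site, 5′ to 3′ on the gene's strand, for the gene that was deleted and for Foxo1 and Foxk2, which changed in opposite directions with IgM. In the Foxp1 windows, capitals mark the forkhead core TGTTTA or its reverse complement TAAACA. In the Foxo1 and Foxk2 windows, capitals mark the CCAAT box, read here as ATTGG on the other strand.
Foxp1 start 1, chr6:99520994-99521243, minus strand: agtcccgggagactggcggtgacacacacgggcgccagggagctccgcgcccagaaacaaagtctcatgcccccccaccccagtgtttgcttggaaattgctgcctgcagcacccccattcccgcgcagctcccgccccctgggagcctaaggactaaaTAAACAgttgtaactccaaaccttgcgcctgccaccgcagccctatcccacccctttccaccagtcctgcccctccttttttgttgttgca
Foxp1 start 2, chr6:99266516-99266765, minus strand: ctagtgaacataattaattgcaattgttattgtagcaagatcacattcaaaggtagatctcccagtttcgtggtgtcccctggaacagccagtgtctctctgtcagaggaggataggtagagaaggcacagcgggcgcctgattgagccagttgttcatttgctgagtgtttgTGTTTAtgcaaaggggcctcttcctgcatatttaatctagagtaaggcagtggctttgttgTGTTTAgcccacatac
Foxp1 start 3, chr6:99028299-99028548, minus strand: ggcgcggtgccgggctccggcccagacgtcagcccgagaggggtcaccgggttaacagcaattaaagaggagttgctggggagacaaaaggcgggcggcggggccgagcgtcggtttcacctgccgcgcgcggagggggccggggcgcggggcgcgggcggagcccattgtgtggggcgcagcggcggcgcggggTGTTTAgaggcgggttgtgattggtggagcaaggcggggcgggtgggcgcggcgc
Foxo1, chr3:52268087-52268336, plus strand: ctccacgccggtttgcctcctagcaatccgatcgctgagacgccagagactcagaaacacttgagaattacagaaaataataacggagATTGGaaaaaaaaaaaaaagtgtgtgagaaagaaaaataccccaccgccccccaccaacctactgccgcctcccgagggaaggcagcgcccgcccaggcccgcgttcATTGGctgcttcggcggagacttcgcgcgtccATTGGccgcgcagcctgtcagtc
Foxk2, chr11:121259737-121259986, plus strand: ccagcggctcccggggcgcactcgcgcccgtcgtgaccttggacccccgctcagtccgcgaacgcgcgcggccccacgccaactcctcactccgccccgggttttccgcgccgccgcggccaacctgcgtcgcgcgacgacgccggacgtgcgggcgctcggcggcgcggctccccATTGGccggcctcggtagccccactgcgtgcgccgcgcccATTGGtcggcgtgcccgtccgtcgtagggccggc
All 3 Foxp1 windows held the core TGTTTA (both strands searched), which lies in 12% of all 32851 windows of this length, and none of the other 6 windows of members did. The longer site TGTTTAC, which contains the core and lies in 3.17% of windows, was in none of the 9. CCAAT was in the Foxo1 window 3 times, in the Foxk2 window 2 times and once in the window of Foxp1 start 3, against 33.8% of all windows with at least 1 match. TGANTCA, the AP-1 site (6.75% of windows), TGACGTCA, the cyclic AMP response element (1.55%), CACGTG, the E-box (6.02%), an NF-kB motif (0.356%) and GCGTGGGCG, an EGR site (0.536%), were in none of the 9 windows. A match is a run of letters and no evidence of binding.

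Values are log2 signals as the authors deposited them, with a floor of 2.23 and a maximum of 15.79. A probe set was tested when it lay above 4 on at least 3 arrays. Of the 35 forkhead probe sets 28 passed, with at least 1 for each gene, and the other 7 stayed between 2.23 and 3.55 on all 12 arrays. Those 7 were 1 each of Foxp4, Foxo1, Foxo3, Foxo4 and Foxj3, and 2 of Foxk1. Levels of different probe sets cannot be set against each other, so each is followed across groups. A further probe set that names both Foxo3 and a predicted gene was left out. The B cell genes Cd79a, Cd79b, Ms4a1, Ptprc and Cd22 lay between 8.21 and 14.61 on all arrays, and Pax5 between 4.82 and 9.15.

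Replicate 3 of deleted cells with IgM stood apart from the other 11 arrays. Over all tested probe sets it correlated at 0.837 and 0.884 with its group mates, whereas all other pairs within a group reached 0.948 or more. Its mean level of bacterial poly-A control RNAs was 6.94, against 8.05 to 10.73 elsewhere. Of the 28 forkhead probe sets it was the highest of its group in 20 and the lowest in 5. Values without it stand beside some of the forkhead results that it moved. Log2 differences of listed genes and cell markers are given with it only. Without it and with the replicate numbers as a block (same-numbered arrays treated as pairs), 9 of 28 forkhead probe sets passed between unstimulated genotypes, those of Foxn3, Foxo1 and Foxp4, against 16.7% of all probe sets.

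**Figure D1:**
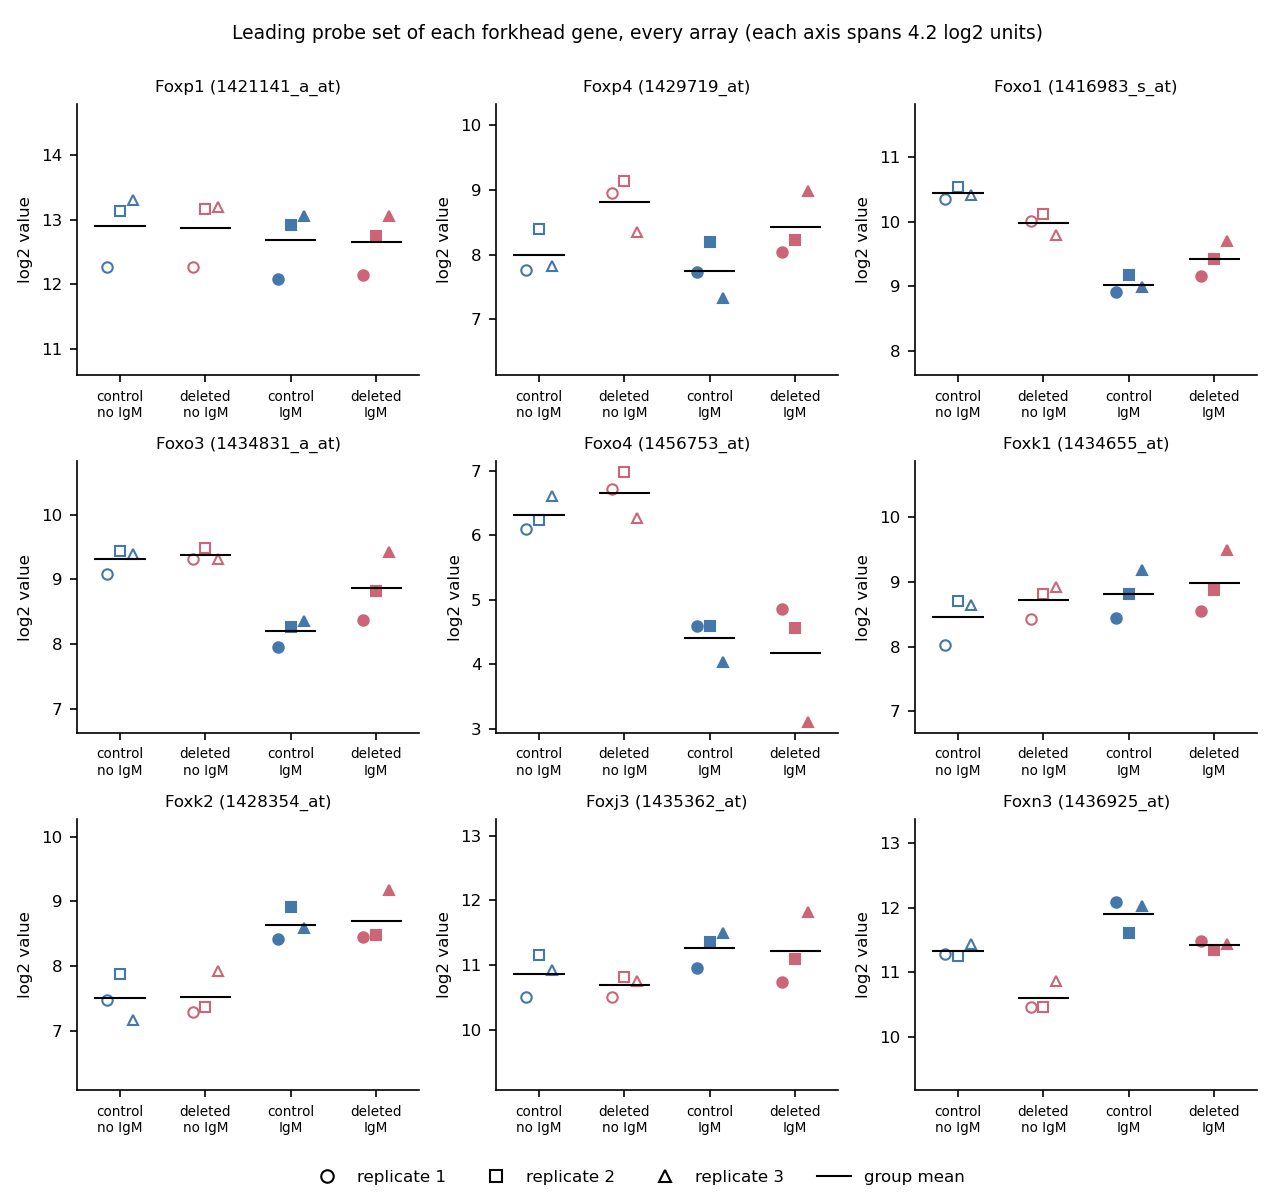
Log2 value of the leading probe set (the one with the highest mean) of each gene on every array, by genotype and stimulation; symbols mark replicate numbers, bars the group means of 3 arrays, and each axis spans 4.2 log2 units. The IgM arrays of Foxo1 lie below all unstimulated arrays of both genotypes, those of Foxk2 lie above them, and Foxp1 varies by replicate number more than by group.

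Foxp1, the targeted gene, was not lower in deleted cells on any of its 8 probe sets past the threshold (Benjamini-Hochberg adjusted p under 0.05). The positions of these probe sets against the removed exons could not be placed here, so they do not check the genotype labels. The leading probe set, 1421141_a_at, read 12.27, 13.14 and 13.30 in replicates 1, 2 and 3 of unstimulated control cells and 12.26, 13.16 and 13.20 in unstimulated deleted cells. With IgM it read 12.08, 12.91 and 13.06 in control and 12.14, 12.74 and 13.06 in deleted cells. The arrays of the genotypes therefore overlapped almost fully, and replicate 1 was the lowest array of every group. The genotype difference without IgM was -0.03 (95% interval -0.90 to 0.84, limma adjusted p = 1) and with IgM -0.03 (-0.91 to 0.84, limma adjusted p = 0.974), so a change of up to about 0.9 log2 units in either direction lay within the interval. With the replicate block the SE of both was 0.14 (limma adjusted p = 0.993 and 0.886), and the same-numbered pairs differed by -0.01, 0.02 and -0.10 without IgM and by 0.06, -0.17 and 0 with it. The difference with IgM was -0.24 without deleted IgM replicate 3.

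The Foxp1 probe sets fell into opposing patterns by replicate number. In 6 of them the arrays of replicate 1 averaged 0.44 to 0.88 log2 units below those of replicates 2 and 3, with the largest gap on 1421141_a_at (12.19 against 13.07). In the other two, 1438802_at and 1443258_at, replicate 1 was higher, by 0.79 (9.84 against 9.05) and 0.91 (8.33 against 7.42). The same arrays thus ranked oppositely on probe sets of 1 gene. With IgM all 8 averaged lower in both genotypes, by 0.12 to 0.60 in control and 0.21 to 0.55 in deleted cells, and 0 of 8 passed in either. With the replicate number as a block, 1438802_at passed in control cells (limma adjusted p = 0.0469) and 1435221_at in deleted cells (limma adjusted p = 0.0162). In that fit without deleted IgM replicate 3, 1455242_at, 1435221_at and 1438802_at passed in control and 1435221_at and 1438802_at in deleted cells (limma adjusted p = 0.00136 to 0.0272).

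**Figure D2:**
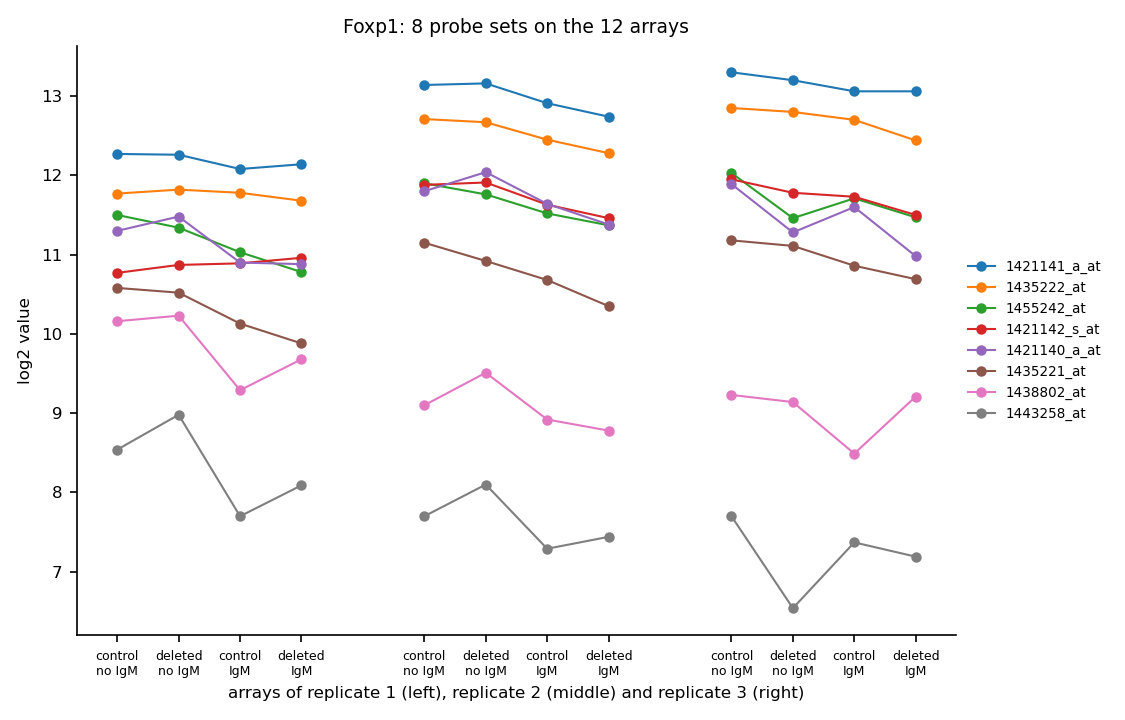
Log2 values of the 8 Foxp1 probe sets on the 12 arrays, grouped by replicate number; lines join arrays of 1 replicate number. The 6 brightest probe sets are lower on replicate 1 and the 2 dimmest are higher there, and 1421141_a_at stays between 12.08 and 12.27 on the 4 arrays of replicate 1.

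The response to IgM in control cells split the family. In the fit without the replicate block all 3 FOXO genes fell and Foxk2 rose. Foxp1, Foxp4, Foxk1, Foxj3 and Foxn3 had no probe set past the threshold in that fit. Of the 28 probe sets 9 passed in limma, 3 higher and 6 lower, which is 32.1%, against 18.2% of all 19187 tested (8.24% higher and 9.91% lower). In 14 the 3 IgM arrays did not overlap the 3 unstimulated ones, 8 higher and 6 lower, against 43.1% of all probe sets (21.2% and 21.9%). With the replicate block 15 passed, 8 higher and 7 lower, against 33.4% of all (16% and 17.4%). The count was 6 to 11 with any single array left out, the lowest being without control unstimulated replicate 3. Leaving out every array of replicate number 1 gave 3, and every array of number 2 gave 0. The shares of all probe sets under these omissions are not given here, so the drops cannot be read as particular to forkhead genes.

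In deleted cells 9 of 28 probe sets also passed, 7 higher and 2 lower, against 17% of all tested (9.95% higher and 7.04% lower). In this fit without the block Foxk2 and Foxn3 rose, Foxo4 and 1 of 2 Foxo3 probe sets fell, and Foxo1 did not pass. In 13 the IgM arrays did not overlap the unstimulated ones, 8 higher and 5 lower, against 32.5% of all probe sets (17.8% and 14.8%). With the replicate block 14 passed, 8 higher and 6 lower, against 34.4% of all (19.1% and 15.3%). Without deleted IgM replicate 3 the count was 11, against 21.1% of all, with 6 higher and 5 lower. Omitting replicate 1, 2 or 3 of unstimulated deleted cells gave 3, 4 and 4, and omitting replicate 2 of deleted cells with IgM gave 5. Omitting every array of replicate number 1 gave 1, and of number 2 gave 0. Only for the omission of deleted IgM replicate 3 is the share of all probe sets given. The other drops therefore cannot be read as particular to forkhead genes. Several B cell markers changed in the same comparisons. Of 9 measured pan-B markers 3 fell with IgM in control cells, and in deleted cells Cd79b and Pax5 fell (-1.93 and -2.06) while Blk and Cr2 rose (1.10 and 2.21, limma adjusted p = 0.00596 to 0.0191). Among all genes 11.4% fell in control cells, and 8.78% fell and 9.3% rose in deleted cells. Under the block 6 of the pan-B markers fell and 1 rose in control cells, against 19.5% and 15.2% of all genes. In deleted cells 4 fell and 2 rose under it, against 18.9% and 16.9%. The summed linear signal of the 9 measured of 10 pan-B markers was 72546 to 75349 in unstimulated control and 31285 to 35510 in IgM control arrays, and 67048 to 71971 and 36273 to 47178 in deleted cells, and its part in the forkhead values was not tested. In such bulk samples fewer cells of a type and less RNA per cell cannot be told apart.

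**Figure D3:**
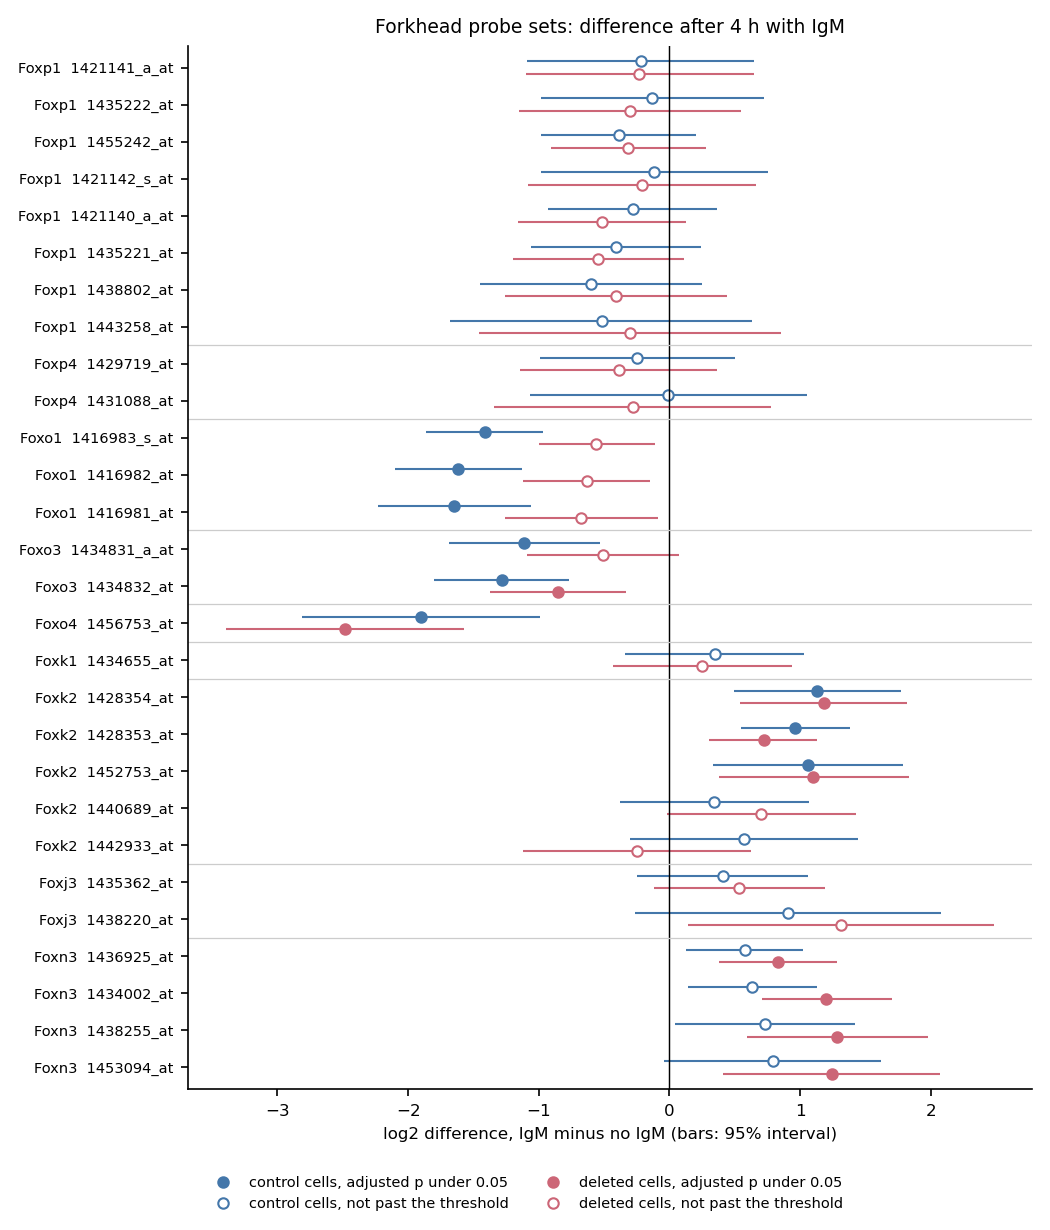
Log2 difference between IgM and unstimulated arrays for the 28 tested forkhead probe sets in control (blue) and deleted (red) cells, with 95% intervals from limma; filled points passed the threshold. The FOXO probe sets lie left of 0 and the 3 brightest Foxk2 and all 4 Foxn3 probe sets right of 0 in both genotypes.

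Foxo1, the main FOXO factor of B cells, was measured by 3 probe sets that gave the same picture. On 1416983_s_at unstimulated control arrays read 10.36, 10.54 and 10.41 and IgM control arrays 8.91, 9.18 and 8.99. All IgM arrays thus lay more than a log2 unit below all unstimulated ones. The level fell by 1.41 ± 0.20 (SE, n = 3 per group), or 2.66-fold (limma adjusted p = 0.000999), and by 1.62 ± 0.22 and 1.65 ± 0.27 on 1416982_at and 1416981_at (limma adjusted p = 0.000781 and 0.00198). These calls held with each of the 12 arrays left out in turn (adjusted p of at most 0.0122).

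In deleted cells the Foxo1 values moved the same way over a shorter distance. Unstimulated arrays read 10.02, 10.12 and 9.80 and IgM arrays 9.16, 9.42 and 9.70 on 1416983_s_at, again without overlap. The difference was -0.56 ± 0.20 (SE, n = 3 per group; limma adjusted p = 0.0842), and on the other probe sets -0.63 and -0.68 (limma adjusted p = 0.0741 and 0.109). All 3 passed with the replicate block (limma adjusted p = 0.034, 0.0235 and 0.0269). Without deleted IgM replicate 3, the highest array of that group, the difference on 1416983_s_at was -0.69 (limma adjusted p = 0.0164) and 1416982_at also passed (limma adjusted p = 0.0334).

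The 4 group means of 1416983_s_at ran from 10.44 ± 0.09 in unstimulated control and 9.98 ± 0.16 in unstimulated deleted cells to 9.43 ± 0.27 in deleted and 9.03 ± 0.14 in control cells with IgM (SD, n = 3 each). Neighbours in that order did not pass the threshold without the block. Unstimulated deleted arrays were lower than control by 0.45 to 0.53 on the 3 probe sets (limma adjusted p = 0.425 to 0.741), in 3 of 3 same-numbered pairs on each. With the replicate block none passed (0.152 to 0.283), and all 3 did once deleted IgM replicate 3 was also left out (limma adjusted p = 0.0136, 0.0303 and 0.0398, where 16.7% of all probe sets passed). With IgM they were higher by 0.40 to 0.51 (limma adjusted p = 0.452 to 0.493), again in 3 of 3 pairs, and without that array by 0.26 on 1416983_s_at. The interaction (genotype difference with IgM minus the one without) was 0.86 ± 0.28, 0.98 ± 0.31 and 0.97 ± 0.38 (SE, n = 3 per group). Unadjusted p in limma was 0.012, 0.00917 and 0.0263, and adjusted p was 0.968, 0.883 and 0.968 (0.256 to 0.326 with the replicate block), so a difference between genotypes in the Foxo1 response was not established over all probe sets. Without deleted IgM replicate 3 the interaction on 1416983_s_at was 0.72 (limma adjusted p = 0.66).

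Foxo3, a FOXO factor that overlaps with FOXO1 in function, fell in control cells on both tested probe sets. On 1434832_at the arrays read 7.96, 8.43 and 8.19 without IgM and 6.73, 7.18 and 6.82 with it. They did not overlap, and the fall was 1.28 ± 0.23 (SE, n = 3 per group; limma adjusted p = 0.00379). On 1434831_a_at the level fell by 1.11 ± 0.26 (limma adjusted p = 0.0144), a call that was lost without control unstimulated replicate 2 or 3 or control IgM replicate 1 (adjusted p = 0.0518 to 0.0593).

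In deleted cells Foxo3 read 8.26, 8.49 and 8.12 without IgM and 7.12, 7.45 and 7.76 with it on 1434832_at, and it fell by 0.85 ± 0.23 (SE, n = 3 per group; limma adjusted p = 0.030). That call was lost without any 1 of the 3 deleted unstimulated arrays or without deleted IgM replicate 1 or 2 (adjusted p = 0.0508 to 0.105). On 1434831_a_at the difference was -0.51 ± 0.26 (limma adjusted p = 0.22), where deleted IgM replicate 3, at 9.42, reached the unstimulated values of 9.31, 9.49 and 9.32. Without that array it was -0.78 (limma adjusted p = 0.0218). With IgM this probe set was higher in deleted cells (8.37, 8.82 and 9.42) than in control cells (7.96, 8.27 and 8.36), with no overlap, by 0.67 ± 0.26 (limma adjusted p = 0.34). Without deleted IgM replicate 3 that difference was 0.40 (limma adjusted p = 0.543).

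Foxo4, the X-linked member of the FOXO group, was low throughout and had the largest fall among the 28 probe sets in both genotypes. On 1456753_at control arrays read 6.10, 6.23 and 6.60 without IgM and 4.60, 4.59 and 4.04 with it. Deleted arrays read 6.72, 6.98 and 6.27 without IgM and 4.86, 4.57 and 3.10 with it. The falls were 1.90 ± 0.41 and 2.48 ± 0.41 (SE, n = 3 per group; limma adjusted p = 0.00951 and 0.00266). IgM values came close to the floor, where differences are compressed. The lowest value was again that of deleted IgM replicate 3, without which the fall in deleted cells was 1.94 (limma adjusted p = 0.00122). The genotype difference was 0.34 without IgM and -0.23 with it (limma adjusted p = 1 and 0.819), and the latter was 0.30 without that array.

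Foxk2 rose in both genotypes on its 3 brightest probe sets. On 1428353_at control arrays read 7.45, 7.29 and 7.07 without IgM and 8.09, 8.38 and 8.24 with it, and deleted arrays 7.47, 7.24 and 7.23 without and between 7.92 and 8.16 with IgM. No IgM array overlapped an unstimulated one. The rise was 0.96 ± 0.19 in control and 0.72 ± 0.19 in deleted cells (SE, n = 3 per group; limma adjusted p = 0.00545 and 0.0243), and it was seen in 3 of 3 same-numbered pairs of each genotype. On 1428354_at it was 1.13 and 1.18, and on 1452753_at 1.06 and 1.10 (limma adjusted p = 0.0178 to 0.0468).

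Several of these Foxk2 calls lay near the threshold. In control cells 1428353_at kept its call with each single array left out. In the same comparison 1428354_at lost it without control unstimulated replicate 1 or 3 or control IgM replicate 2 or 3 (adjusted p = 0.059 to 0.0825), and 1452753_at in 9 of 12 omissions (0.057 to 0.164). In deleted cells 1428354_at lost it without deleted unstimulated replicate 1 or 2 (0.0642 to 0.0747), 1428353_at without replicate 2 or 3 of that group (0.0765 to 0.0798), and 1452753_at in 9 of 12 omissions (0.0522 to 0.136), among them that of deleted IgM replicate 3 (0.77, adjusted p = 0.0825). The dim probe sets 1440689_at and 1442933_at, at 2.89 to 6.18 on all arrays, did not pass, except 1442933_at in control cells with the block and without deleted IgM replicate 3 (0.57, limma adjusted p = 0.0215). Genotypes did not differ past the threshold on any Foxk2 probe set, and on 1428353_at the 95% interval of the difference was -0.38 to 0.46 without IgM and -0.62 to 0.21 with it.

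Foxn3 had the largest negative genotype differences without IgM among the 28 probe sets. On the leading probe set, 1436925_at, unstimulated control arrays read 11.29, 11.26 and 11.44 and unstimulated deleted arrays 10.46, 10.46 and 10.87. With IgM control arrays read 12.09, 11.61 and 12.03 and deleted arrays 11.49, 11.35 and 11.44. The deleted arrays lay below all control arrays at each stimulation, and those with IgM came back to the level of unstimulated control cells, at 11.43 ± 0.07 against 11.33 ± 0.09 (SD, n = 3).

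Without IgM, all 4 Foxn3 probe sets were lower in deleted cells in 3 of 3 same-numbered pairs. The differences were -0.73 ± 0.20, -0.68 ± 0.23, -1.10 ± 0.31 and -1.10 ± 0.38 (SE, n = 3 per group), and none passed over all probe sets (limma adjusted p = 0.125, 0.229, 0.137 and 0.252). With the replicate block 1436925_at, 1438255_at and 1453094_at passed (limma adjusted p = 0.0316, 0.0262 and 0.0195) and 1434002_at did not (0.0825). Leaving out deleted IgM replicate 3 brought 1434002_at past the threshold (adjusted p = 0.0272), and leaving out deleted unstimulated replicate 2 did so for 1438255_at (adjusted p = 0.0456). With IgM the 4 differences were -0.48, -0.11, -0.55 and -0.66 (limma adjusted p = 0.383 to 0.843), and without deleted IgM replicate 3 that of 1434002_at was -0.35.

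IgM raised Foxn3 in deleted cells, where all 4 probe sets passed with rises of 0.83 ± 0.20, 1.20 ± 0.23, 1.28 ± 0.31 and 1.24 ± 0.38 (SE, n = 3 per group; limma adjusted p = 0.0177, 0.00495, 0.0178 and 0.0447). On 1434002_at unstimulated deleted arrays read 9.90, 10.22 and 10.08 and IgM deleted arrays 11.10, 10.97 and 11.73, and this call held with any single array left out. That of 1436925_at was lost without deleted unstimulated replicate 1 or 2 (adjusted p = 0.0672 to 0.0743), that of 1438255_at without deleted unstimulated replicate 1 or 3 or deleted IgM replicate 2 (0.0599 to 0.0644), and that of 1453094_at in 9 of 12 omissions (0.0526 to 0.152).

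In control cells the Foxn3 differences with IgM were 0.58 to 0.79, each positive in 3 of 3 pairs, with limma adjusted p of 0.0751 to 0.184 and, with the replicate block, 0.0205 to 0.039. Without deleted IgM replicate 3, which the fit uses only for its estimate of the spread, 1436925_at and 1434002_at passed also without the block (limma adjusted p = 0.0343 and 0.00783). The interaction was positive on all 4 probe sets, 0.25 to 0.57, and did not pass (limma adjusted p = 0.968 for each). The order of the group means was therefore deleted unstimulated, control unstimulated, deleted IgM and control IgM on 1436925_at (10.60, 11.33, 11.43 and 11.91).

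Over the whole family, genotype moved no forkhead probe set past the threshold in the fit without the block. In the blocked fit it moved 3, all of Foxn3 and without IgM. Without IgM 0 of 28 passed in limma, against 2.03% of all tested, 7 had an unadjusted p under 0.05 (9.74% of all), and 3, all of Foxn3, passed with the replicate block, all lower (5.36% of all, 2.13% lower). In 7 the genotypes did not overlap, 1 higher and 6 lower in deleted cells, against 17.2% of all probe sets (8.03% and 9.12%). With IgM 0 of 28 passed in limma, against 1.19% of all, 4 had an unadjusted p under 0.05 (12% of all) and 0 passed with the block (4.8% of all). In 5 the genotypes did not overlap, 2 higher and 3 lower, against 16.1% of all (10.2% and 5.85%). For the interaction 0 of 28 passed in limma, against 0.099% of all, 3 (those of Foxo1) had an unadjusted p under 0.05 (3.63% of all) and 0 passed with the block (0.198% of all).

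**Figure D4:**
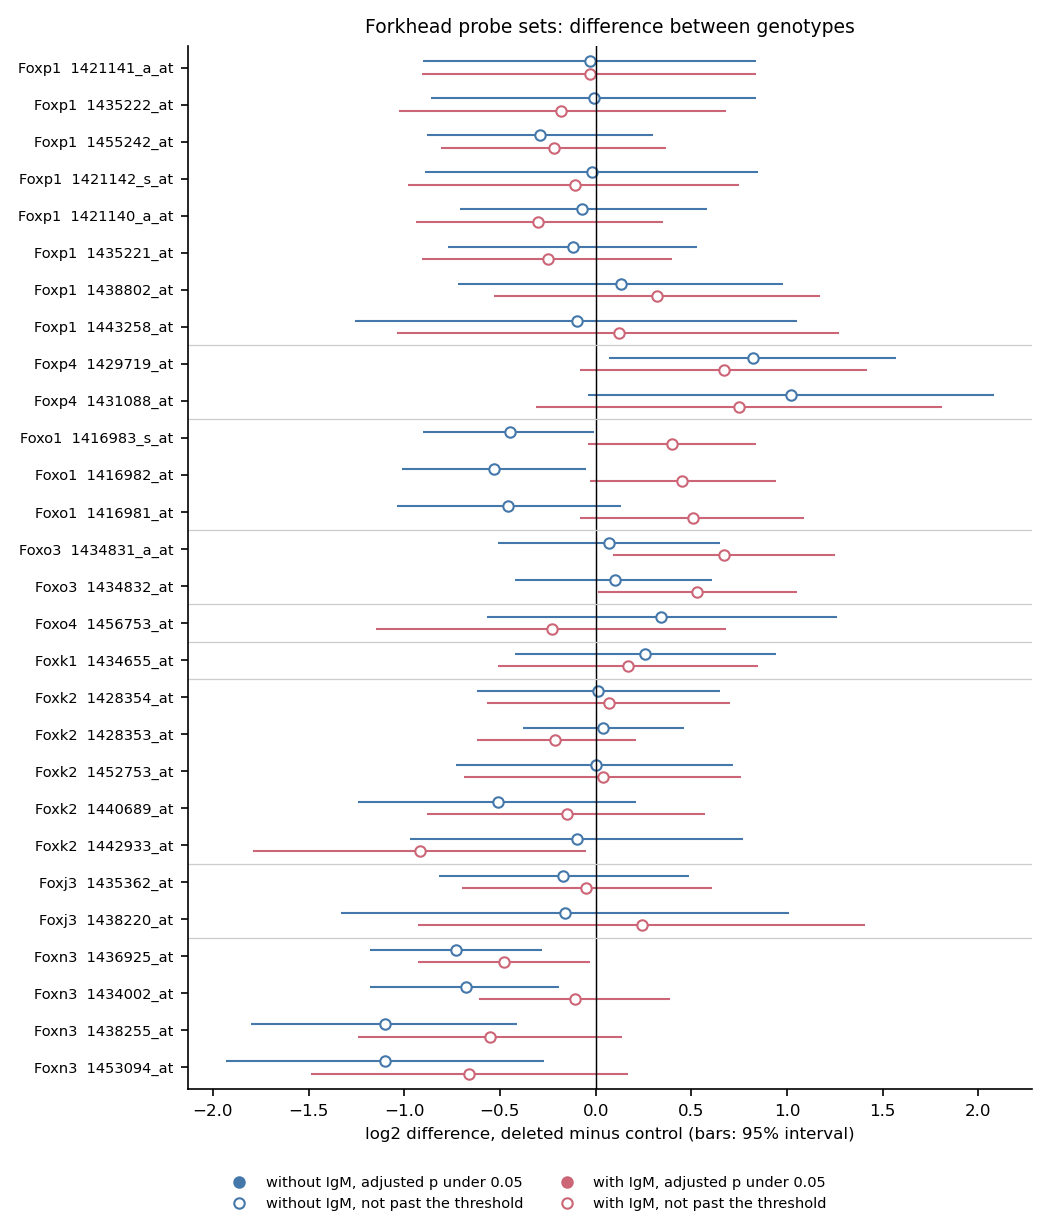
Log2 difference between deleted and control arrays for the 28 tested forkhead probe sets without (blue) and with (red) IgM, with 95% intervals from limma; open points did not pass the threshold, and no point is filled. Foxn3 lies left of 0 throughout, Foxp4 right of 0, and Foxo1 left of 0 without IgM and right of 0 with it.

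Foxp4, the other FOXP member measured here, had the largest positive genotype differences without IgM among the 28 probe sets. On 1431088_at unstimulated arrays read 5.02, 6.35 and 5.96 in control and 6.81, 7.07 and 6.51 in deleted cells, which did not overlap. The difference was 1.02 ± 0.48, and 0.82 ± 0.34 on 1429719_at (SE, n = 3 per group; limma adjusted p = 0.548 and 0.421). Both were positive in 3 of 3 pairs, and neither passed in the blocked fit (0.148 and 0.202). Both passed there without deleted IgM replicate 3 (limma adjusted p = 0.0323 and 0.00642). Among IgM arrays the genotype differences were 0.75 and 0.67 (limma adjusted p = 0.551 and 0.476), and 0.34 and 0.39 without deleted IgM replicate 3, the highest array of its group on both. The differences between IgM and unstimulated arrays of the same genotype were -0.01 to -0.39, none past the threshold. In deleted cells, where 2 of 3 pairs were negative on each probe set, they were -0.69 on 1431088_at and -0.68 on 1429719_at without deleted IgM replicate 3, and the latter passed with the block (limma adjusted p = 0.00308).

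Foxk1, the paralogue of Foxk2, was read by 1 tested probe set, 1434655_at. Its group means were 8.46 ± 0.38 and 8.72 ± 0.26 in unstimulated control and deleted cells and 8.81 ± 0.37 and 8.98 ± 0.48 with IgM (SD, n = 3 each). The difference with IgM was 0.35 (95% interval -0.34 to 1.03) in control and 0.25 (-0.43 to 0.94) in deleted cells. Neither passed, although the value was higher with IgM in 6 of 6 same-numbered pairs. Once deleted IgM replicate 3 was left out the difference in deleted cells was -0.01, and that in control cells passed with the replicate block (limma adjusted p = 0.025).

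Foxj3 was also higher with IgM in 6 of 6 pairs on both tested probe sets. The leading probe set, 1435362_at, read 10.50 to 11.15 in unstimulated control, 10.50 to 10.82 in unstimulated deleted, 10.95 to 11.49 in IgM control and 10.74 to 11.82 in IgM deleted cells, so that the groups overlapped. Its differences with IgM were 0.41 and 0.53 (limma adjusted p = 0.413 and 0.255). Those of the dimmer 1438220_at were 0.91 and 1.31 (limma adjusted p = 0.294 and 0.122), and they passed with the replicate block (limma adjusted p = 0.0354 and 0.0071). Leaving out deleted IgM replicate 3 gave differences in deleted cells of 0.23 on 1435362_at and 0.73 on 1438220_at, and 1435362_at passed with the block in control cells (limma adjusted p = 0.0102). Replicate 1 averaged 1.08 below replicates 2 and 3 on 1438220_at.

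Markers of other blood cells differed between the genotypes in the same arrays. The summed linear signal of the 6 measured of 10 macrophage and monocyte markers was 217 to 565 in unstimulated control and 752 to 3094 in unstimulated deleted arrays. In deleted cells 1 of the 6 was higher (Csf1r) and 1 lower (Adgre1). For 8 of 10 neutrophil markers the ranges were 329 to 2700 and 3352 to 23106 with 0 past the threshold, and for 6 of 8 NK cell markers 251 to 1458 and 542 to 2342 with 1 higher in deleted cells (Klrk1). For 5 of 8 dendritic cell markers they were 902 to 1152 and 2081 to 2937, for 3 of 8 erythroid markers 603 to 862 and 822 to 3278, and for 3 of 10 T cell markers 84.1 to 263 and 183 to 547, with 0 past the threshold in each. Of the dendritic cell markers Zbtb46 was lower in unstimulated deleted cells (-1.6, limma adjusted p = 0.0648, and 0.00818 with the block). Cd209a was higher (1.52, limma adjusted p = 0.281 and 0.0136). The bright marker Bst2 read 9.74, 9.57 and 9.38 in unstimulated control and 11.33, 11.07 and 10.85 in unstimulated deleted arrays. A linear sum weighs bright markers most, so this one does not show more dendritic cells. The defining markers Cd3e, Cd4, Cd8a, Lck and Thy1 of T cells, C1qa of macrophages, Ly6g of neutrophils and Ncr1 of NK cells were not among those measured. Among IgM arrays the macrophage sum was 177 to 458 in control and 499 to 2463 in deleted cells, with 2 markers higher in deleted cells (Csf1r and Vcam1), and the neutrophil sum was 229 to 1510 and 1749 to 13422. In the blocked fit 3 neutrophil, 3 macrophage, 2 dendritic cell, 1 NK cell and 1 erythroid marker were higher in unstimulated deleted cells, and 1 macrophage, 1 dendritic cell and 2 pan-B markers were lower. With IgM 2, 3, 1, 2 and 0 of these lists and 1 T cell marker were higher. Among all genes that fit called 4.13% higher and 2.09% lower without IgM, and 4.76% higher with it. The part of these other blood cells in the forkhead values was not tested.

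Of the other 35 forkhead genes listed, 28 had a probe set of their own and only Foxn2 and Foxj2 passed the filter on low values. Foxn2, a relative of Foxn3, rose with IgM from 9.98 ± 0.30 to 11.08 ± 0.48 in control and from 10.04 ± 0.22 to 11.09 ± 0.44 in deleted cells (SD, n = 3), by 1.09 and 1.05 (limma adjusted p = 0.0302 and 0.0383). These calls were lost in 4 and 7 of 12 single-array omissions (adjusted p = 0.0724 to 0.125 and 0.0512 to 0.13). Foxj2 passed only in the blocked fit, lower with IgM in control cells.

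Among genes known as FOXO targets in lymphocytes, most that changed with IgM fell. In control cells 10 of 22 measured genes fell and 2 rose, against 11.4% lower and 8.32% higher among all 9293 genes, each read by its brightest probe set. The median log2 difference was -0.88, against -0.05 over all genes. Ccng2, a cyclin linked to arrest, read 11.71, 11.67 and 11.62 without and 9.82, 9.97 and 9.60 with IgM and fell by 1.87 ± 0.19 (SE, n = 3 per group; limma adjusted p = 0.000204). The log2 difference was -2.11 for the stress-response gene Sesn1, -1.25 for Klhl24, -2.55 for the quiescence factor gene Klf2 and -2.38 for the DNA damage response gene Gadd45a (limma adjusted p = 0.000403 to 0.00353). The rises were those of Irs2, an insulin receptor substrate, by 2.25, and of the cytokine receptor gene Il7r by 1.85 (limma adjusted p = 0.0151 and 0.0107). In the blocked fit 14 fell and 2 rose, against 19.5% and 15.2% of all genes.

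In deleted cells 7 of the 22 fell and 2 rose, against 8.78% lower and 9.3% higher among all genes, with a median of -0.46 against -0.08. Falls included Klf2 (-2.68), Ccng2 (-1.25) and Klhl24 (-0.82), and the rises were those of the death gene Bcl2l11 (1.25) and Irs2 (2.49; limma adjusted p = 0.0011 to 0.00995). Sesn1 fell by 0.98 (limma adjusted p = 0.023), and deleted IgM replicate 3, at 10.35, lay above its group mates at 9.32 and 9.47. With the block 10 of the 22 fell and 4 rose, against 18.9% and 16.9% of all genes. The interaction had 0 of 22 past the threshold, against 0.108% of all genes (median 0.45 against 0.07 over all genes), with 1.13 for Sesn1 and 0.87 for Bcl2l11 as the smallest p (limma adjusted p = 0.883 and 0.958).

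**Figure D5:**
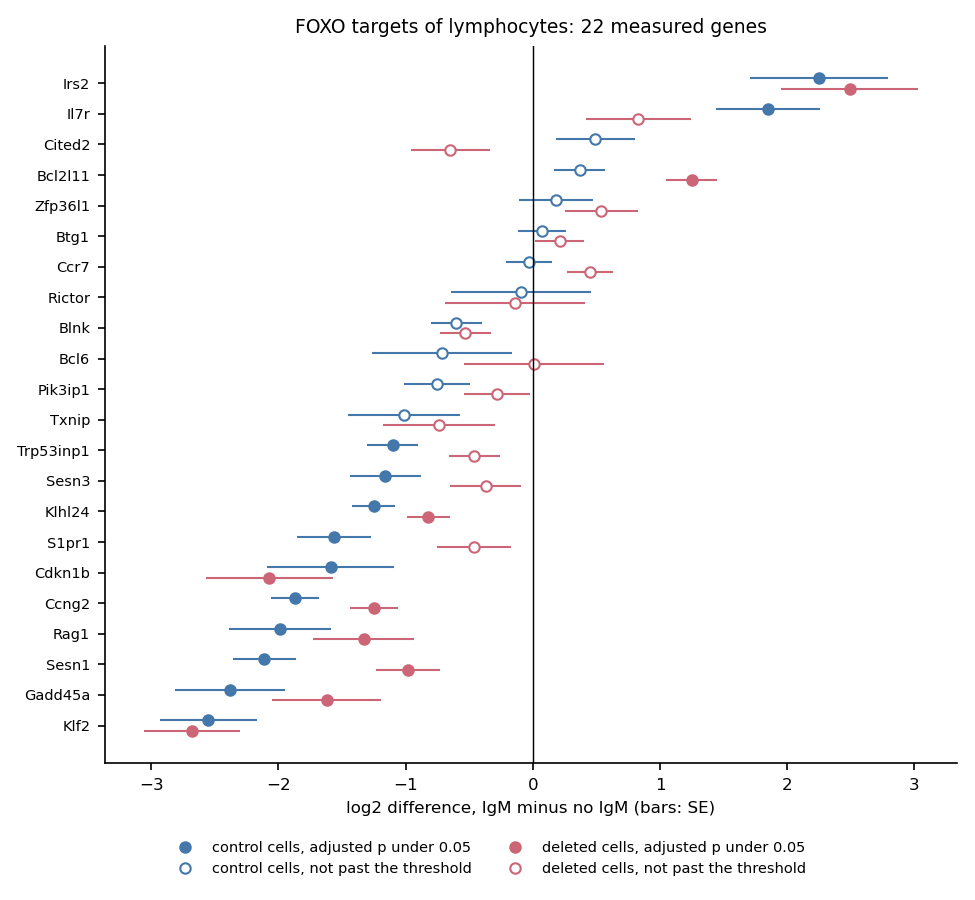
Log2 difference between IgM and unstimulated arrays for the 22 measured FOXO targets in control (blue) and deleted (red) cells, with SE; filled points passed the threshold. Klf2 has the lowest value in both genotypes, and Irs2 the highest.

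Between genotypes 1 to 3 of the FOXO targets passed. Without IgM 1 of 22 was called, Bcl2l11, which was lower in deleted cells by 0.92 (limma adjusted p = 0.0442), against 0.646% of all genes lower, a call lost in 11 of 12 single-array omissions (adjusted p = 0.053 to 0.177). Among IgM arrays 3 were higher in deleted than in control cells, against 1.39% of all genes. They were the recombinase gene Rag1 by 2.37, Ccng2 by 0.97 and the egress receptor gene S1pr1 by 1.41 (limma adjusted p = 0.0177, 0.044 and 0.0483). Rag1 was also higher in deleted cells without IgM, by 1.71 (limma adjusted p = 0.058), and its interaction was 0.66 (0.968). Its IgM control arrays read 3.70, 4.00 and 4.28, near the filter of 4. Single-array omissions ended the call of Rag1 in 3 of 12 cases (without any of the 3 IgM control arrays, adjusted p = 0.0678 to 0.0866), of Ccng2 in 10 (0.0634 to 0.216) and of S1pr1 in 12 (0.0571 to 0.215). Under the block 1 target was higher and 1 lower in deleted cells without IgM, and 4 were higher with it. Among all genes 4.13% were higher and 2.09% lower without IgM, and 4.76% higher with it.

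The upstream PI3K and AKT list had 14 measured genes. In control cells 4 fell with IgM and 0 rose, against 11.4% lower and 8.32% higher among all genes: the kinase gene Sgk3, which read 9.42, 9.40 and 9.27 without and 7.64, 7.85 and 7.56 with IgM (-1.68), the PI3K subunit gene Pik3r1 (-1.10), the phosphatase subunit gene Ppp2r5c (-0.97) and the lipid phosphatase gene Inpp5d, 2.01-fold lower (limma adjusted p = 0.00262 to 0.0197). The call of Inpp5d was lost in 4 of 12 single-array omissions (adjusted p = 0.0548 to 0.0739). In deleted cells 1 fell, Ppp2r5c (-1.21, limma adjusted p = 0.0027), against 8.78% of all genes. Between genotypes 0 of 14 passed without or with IgM, and the interaction had 0 of 14. The blocked fit called 5 falls and 2 rises in control cells, against 19.5% lower and 15.2% higher among all genes. In deleted cells it called 3 falls and 2 rises, against 18.9% and 16.9%. In that fit Pik3r1 and Sgk3 were higher in deleted cells with IgM, by 0.93 and 1.27 (limma adjusted p = 0.03 and 0.0343, against 0.0645 and 0.0665 without the block). That fit called 4.76% of all genes higher. Deleted IgM arrays of replicates 1, 2 and 3 read 8.84, 8.97 and 9.37 for Pik3r1 and 8.57, 8.58 and 9.71 for Sgk3. Those of Inpp5d read 10.04, 9.84 and 10.84. Differences without replicate 3, which stood apart, are not given for this list.

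Of 20 measured FOXO partners and modifiers, 2 fell with IgM in control cells, near the 11.4% of all genes that fell, namely the p38 kinase gene Mapk14 (-1.44) and the acetyltransferase gene Kat2b (-1.91; limma adjusted p = 0.00316 and 0.0123). The Kat2b call was lost without control unstimulated replicate 3 or control IgM replicate 1 (adjusted p = 0.052 to 0.0535). In deleted cells the falls were those of Mapk14 (-1.31) and Ywhaq (-0.61), which encodes a 14-3-3 protein (limma adjusted p = 0.00591 and 0.0334, the latter lost in 9 of 12 omissions at 0.052 to 0.111). Among all genes 8.78% fell there. Between genotypes Mapk14 was the only gene of the list past the threshold without the block, higher in deleted cells with IgM by 1.24 (limma adjusted p = 0.0472), and that call was lost in each of the 12 omissions (0.0544 to 0.219). Among all genes 1.39% were higher in that comparison. In the blocked fit 3 of the 20 fell with IgM in control cells (19.5% of all genes). In deleted cells 5 fell (18.9%) and 1 rose (16.9%). At each stimulation 2 were higher in deleted cells, against 4.13% of all genes without IgM and 4.76% with it. Without IgM these were Mapk14 (1.10) and Ywhaq (0.72; limma adjusted p = 0.0347 and 0.019). Of 23 genes of FOXP and FOXK corepressor complexes, 1 passed in any comparison without the block, Mta1 of the NuRD complex, which rose by 0.73 with IgM in control cells (limma adjusted p = 0.0439, lost in 9 of 12 omissions at 0.0559 to 0.159). Among all genes 8.32% rose and 11.4% fell in that comparison. With the block 3 of the 23 rose and 2 fell in control cells, against 15.2% and 19.5% of all genes. In deleted cells 3 rose, against 16.9%, and 0 passed between genotypes.

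The genes whose pattern was most like each member's were ranked by Pearson r over the 12 arrays after the mean of each replicate number was subtracted, so the points share their replicate number and the common response to IgM. For Foxo1 they were Kmo, Dhx40 and Rps6ka5 (r = 0.995, 0.993 and 0.993), which differed with IgM by -1.99, -1.76 and -2.69 in control and -0.86, -0.84 and -1.04 in deleted cells. For Foxn3 they were Plcxd2, Msl2 and Cth (0.988, 0.981 and 0.980), for Foxk2 Polr3b, Wdr26 and Pfkfb3 (0.978, 0.977 and 0.976), for Foxo3 Tspyl3, Afg1l and Gdi2 (0.993, 0.990 and 0.989) and for Foxo4 Ap1s2, Pxmp4 and Kif1c (0.989, 0.987 and 0.986). The closest to Foxj3 was Dlat (0.993) and to Foxk1 Plbd2 (0.980), and Prrc2b led for Foxp4. Foxp1 had the lowest top value, 0.940, with Ddx58.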

How the data were processed

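RNA of 12 samples was measured on one-colour Affymetrix arrays. The deposited log2 values were made by the authors with GCRMA, per the submitters' processing notes, which name no version or settings. GCRMA corrects background by probe sequence and normalizes arrays by quantiles, which compresses values near the floor. Arrays carry no read depth, and their number limits the precision. Groups and replicate numbers came from sample titles. Genes came from the platform annotation, with symbols updated through gene identifiers for 34741 of 34945 probe sets with 1 gene.

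Members and gene lists were chosen with earlier results of these data known. Probe sets above 4 on at least 3 arrays were tested (19187 probe sets) with limma 3.58.1 in R 4.3.3, with 1 mean per group over all 12 arrays, two-sided, Benjamini-Hochberg adjusted over all of them at 0.05, and the model was tested on simulated data. For gene lists the brightest passing probe set stood for a gene, and up to 5 members past the threshold with the smallest p were named per comparison (Il7r and Irs2 in control cells and Sesn1 in deleted cells were named after their values were seen), or up to 2 where none passed.

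Replicate numbers recur in every group, and after subtraction of group means the arrays that carry 1 number correlated at 0.24 to 0.84 over probe sets, above the 0.1 required to treat them as pairs. Blocked values are given for members whose call changes and, for gene lists, as counts. Alternatives covered this block, filter, probe set choice, normalization, variance model, array weights and omitted arrays.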

Additional observations from a re-analysis of the deposited data

How the results depend on the processing

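The member differences that passed the threshold, those whose genotypes did not overlap and those of Foxo1, 39 in all, kept their direction under every alternative run (947 values). In 823 of these the call was as reported, in 98 it was lost and in 26 it was gained. The 27 differences of listed genes that passed and were named also kept their direction, and lost the call in 165 of 675 values. The count of forkhead probe sets past the threshold between genotypes without IgM, 0 as reported, was 3 with the replicate block (5.36% of all probe sets passed), 2 with array weights (6.38%), 9 with the replicate block and deleted IgM replicate 3 left out (16.7%), and 0 to 1 with arrays left out. With IgM, and for the interaction, it was 0 under all alternatives run. For IgM in control cells the count of 9 became 15 with the replicate block (33.4%), 20 with the block and deleted IgM replicate 3 left out (57.1%), 4 with 1 probe set per gene (9 tested), and 0 to 11 with arrays left out. For IgM in deleted cells the count of 9 became 14 with the replicate block (34.4%), 15 with array weights (32.0%), 17 with the block and deleted IgM replicate 3 left out (45.9%), 3 with 1 probe set per gene, 1 in a fit to the 6 arrays compared, and 0 to 11 with arrays left out. With 1 probe set per gene 9 were tested in place of 28, and the main fit called 4 genes for IgM in each genotype. Of all genes read by their brightest probe set, the main fit called 8.32% higher and 11.4% lower with IgM in control cells. In deleted cells it called 9.3% higher and 8.78% lower. In deleted cells Foxo3 was among the 4 genes only through 1434832_at (limma adjusted p = 0.03). Its brightest probe set, 1434831_a_at, did not pass there (limma adjusted p = 0.22). The cause of the other changes was not tested. Shares of all probe sets are not given for the 6-array fit or for the ranges with arrays left out. Scaling arrays to a common median or repeating quantile normalization moved the median of all probe sets by less than 0.1 in every comparison. Values near the floor, as for Foxo4 with IgM, limit how well a fall can be sized.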
